A study of Mus musculus with 6 samples.

Results

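The genes studied here encode the subunits of voltage-gated sodium, calcium and potassium channels and of the other potassium channels. They were found by symbol in the deposited table of the sciatic nerve RNA-seq: symbols of the form *Kcn* with letters and a number, *Scn* with a number and a or b, and *Cacna*, *Cacnb* or *Cacng* with any ending. The rule matched 131 of the 59485 listed genes, of which 92 were potassium, 13 sodium and 26 calcium channel genes. A mean normalised read count of at least 10 in either group was reached by 110 of the 131, and these were tested. The other 21 were below it in both groups, 4 of them at 0 in all 6 libraries (*Kcnj9*, *Kcnk15*, *Kcnmb2* and *Kcnmb3*). Just inside the limit was *Kcnk12*, with a control mean of 10.2, and just outside it *Cacna1i*, with a mutant mean of 9.88. Because 17 genes passed only through the mutant mean and 7 only through the control mean, these 24 had to differ somewhat between the groups.

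Voltage-gated channels open when the membrane depolarises. Sodium channels carry the rising phase of the action potential, potassium channels end it and set the resting potential, and calcium channels couple depolarisation to calcium entry. In myelinated nerve the sodium channels gather at the nodes of Ranvier and the Shaker-type potassium channels beside them, under the myelin at the juxtaparanodes. Schwann cells, the glia that make myelin in peripheral nerve, also carry potassium channels of their own, which buffer potassium and set their membrane potential. Most of the RNA of a nerve comes from the cells within it, since the bodies of the neurons lie in the ganglia and the spinal cord.

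Sciatic nerves were taken at postnatal day 4 from 3 mice whose genotype is given as Ht-PA-Cre; Adar1fl/fl;R26R and from 3 mice given as wild-type, 1 library from each animal. In the mutants Cre, driven by the human tissue plasminogen activator promoter in neural crest cells, was to delete the floxed *Adar1* gene and switch on the R26R (YFP) reporter in these cells and their derivatives, Schwann cells among them. In the study's methods wild-type covers Adar1 fl/fl;R26R and Adar1 fl/+;R26R animals without Cre, so that floxed *Adar1* and the reporter were present in both groups. The RNA came from the whole nerve, with axons, fibroblasts, vessels and attached tissue. By electron microscopy at this age, the paper found Schwann cells in similar numbers in control and mutant sciatic nerves. It proposes that the mutant Schwann cells stall before they form myelin. From such bulk RNA alone, fewer cells of a type and less RNA per cell cannot be told apart. *Adar*, the targeted gene, which encodes the RNA-editing enzyme ADAR1, was at 1602, 2066 and 1133 normalised read counts in the libraries labelled control and at 11768, 9311 and 9773 in those labelled mutant, a difference of 2.72 ± 0.20 (log2 ± SE, adjusted p = 4.1e-05) that goes against the deletion named in the label. The table holds 1 value per gene, so a deleted stretch of the gene cannot be told apart from the rest of it, and the groups are called control-labelled and mutant-labelled here.

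Between 50938349 and 78250094 reads per library fell on genes, and 1 read was worth 0.727 to 1.27 normalised read counts. Among markers of nerve cell types, the summed level of 8 Schwann cell genes was 1131680, 1356360 and 1499310 in the control-labelled libraries and 207418, 52410 and 90939 in the mutant-labelled ones, with 5 of the 8 lower and 0 higher. *Sox10*, the transcription factor that defines the lineage, was at 12618, 11719 and 10920 against 9171, 5838 and 6828 (-0.71 ± 0.16, log2). The summed level of 12 skeletal muscle genes went from 38114, 7682 and 29417 to 111285, 50298 and 359131, with 10 of the 12 higher, and that of 12 neuronal genes from 4388, 4663 and 4009 to 9894, 9484 and 9715, with 7 of the 12 higher. Erythroid genes were lower (3 of 4), fibroblast and perineurial genes were lower in 2 of 8, and 4 of 6 T and NK cell genes were higher, from sums of 22.8 to 43.5 up to 241 to 510.4. Of smooth muscle genes 1 of 8 was higher, of macrophage genes 1 was higher and 3 lower of 7, of mast cell and neutrophil genes 1 of 7 was lower, of melanocyte genes 1 was higher and 2 lower of 4 tested, and of 6 endothelial and 4 adipocyte genes none passed in either direction. No marker found in the table was at 0 in all 6 libraries.

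A gene was called higher or lower in the mutant-labelled libraries when its change was at least 2-fold and its p, before adjustment, was no higher than 0.05, by limma on log2(value + 1) across all 25802 genes with a mean of at least 10. Of the 110 channel genes tested, 28 were called higher (25.5%) and 21 lower (19.1%), where 13.9% of all tested genes were called higher and 10.4% lower. With a Benjamini-Hochberg adjusted p at or under 0.05 as well, 22 of the channel genes stayed higher and 21 lower, 43 in all, against 19.9% of all tested genes in either direction. The 3 mutant-labelled values lay above all 3 control-labelled values for 31 channel genes (28.2%, where 25.9% of all tested genes did) and below them for 29 (26.4%, where 23.3% did), so that the groups overlapped for 50. The median log2 fold change was 0.37 over the channel genes and 0.03 over all tested genes. Among the 86 channel genes with a mean of at least 10 in both groups, 16 were higher and 19 lower, with a median of 0.14, while 10.8% of the 21753 genes under the same limit were higher and 9.93% lower. Two-sided exact permutation of 3 against 3 libraries cannot give a p under 0.1, so the calls rest on the limma fit.

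**Figure D1:**
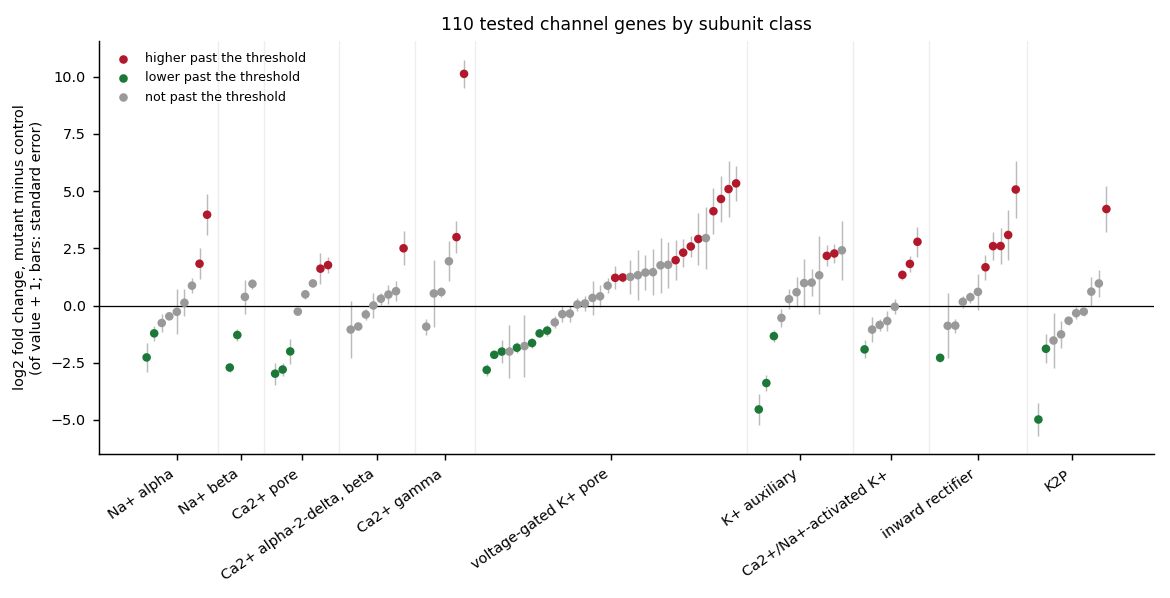
The log2 fold change (mutant minus control, of value + 1) of the 110 tested channel genes on the y axis, grouped by subunit class on the x axis and sorted within each class, with bars for the standard error (n = 3 libraries per group). Red points are the 28 genes called higher, green the 21 called lower and grey the 61 not called; the highest point is *Cacng3* at 10.12 and the lowest *Kcnk1* at -4.98.

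Most of the channel genes with the most reads were called lower. Among the 13 channel genes whose mean over the 6 libraries was at least 1000, 8 were lower (61.5%) and 1 was higher (7.69%), while 8.9% and 8.8% of the 7828 tested genes at that level were. Those 8 were *Kcna1*, *Kcna2*, *Kcna6*, *Kcnj10*, *Kcnk1*, *Kcnmb4*, *Scn3b* and *Cacna1a*, and the 1 higher was *Cacng3*. Of the 43 channel genes between 100 and 1000, 10 were higher and 9 lower (23.3% and 20.9%), beside 15% and 12.2% of all genes. Of the 54 below 100, 17 were higher and 4 lower (31.5% and 7.41%), beside 16.8% and 10.1%. Of these 17, 11 had a control mean under 10 and passed the limit only through the mutant mean, where they are high, and so did *Cacng3*. The 11 were *Cacna2d3*, *Kcnc1*, *Kcnh1*, *Kcnh4*, *Kcnj5*, *Kcnj16*, *Kcnk10*, *Kcnq3*, *Kcns2*, *Kcnt2* and *Scn10a*. With a mean of at least 10 asked of both groups, 6 of 31 below 100 were higher and 2 lower, beside 9.13% and 8.62% of all genes there. These are read counts that grow with the counted length of a gene, so they order the depth behind each gene and not its abundance.

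**Figure D2:**
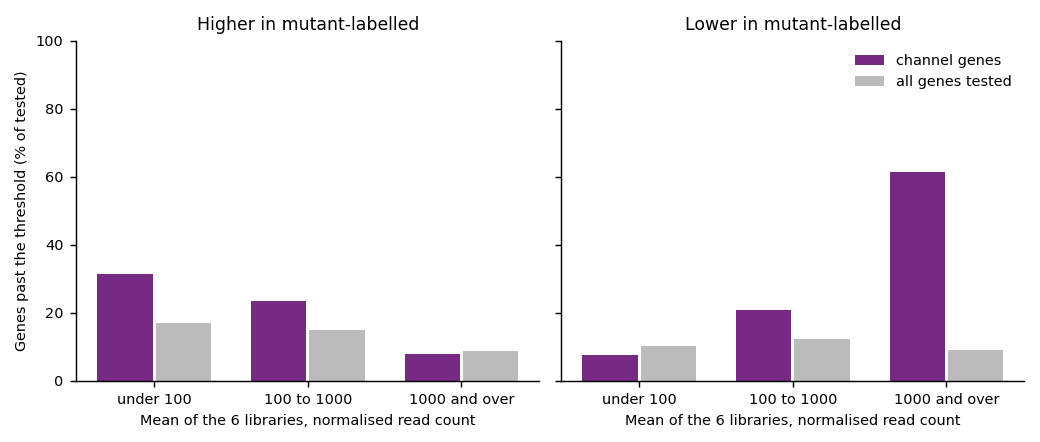
Share of tested genes past the threshold (y axis, in percent) by the mean normalised read count of the 6 libraries (x axis), higher on the left and lower on the right, for channel genes (purple; 54, 43 and 13 tested) and all genes tested (grey). At means of 1000 and over, 61.5% of channel genes were lower, beside 8.9% of all genes; of the 17 channel genes higher below 100, 11 were tested only because of their mutant mean.

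Shaker-type potassium channels were the channel genes with the most reads, and their 3 main nerve members fell together. *Kcna1* (Kv1.1), a juxtaparanodal subunit that dampens repetitive firing, had normalised read counts of 50279, 48915 and 58009 in the control-labelled libraries and of 14208, 9113 and 12496 in the mutant-labelled ones. Its partner *Kcna2* (Kv1.2) had 34742, 35909 and 39872 against 7503, 3212 and 5917. *Kcna6* (Kv1.6), another Shaker-type pore subunit, had 16569, 19676 and 19694 against 9270, 7021 and 7821. In all 3 genes the highest mutant-labelled value lay well under the lowest control-labelled value. The log2 fold changes were -2.15 ± 0.16 for *Kcna1* (adjusted p = 3.84e-05), -2.82 ± 0.27 for *Kcna2* (adjusted p = 0.000122) and -1.22 ± 0.12 for *Kcna6* (adjusted p = 0.00018), each ± SE with n = 3 per group. The falls amounted to 4.39-fold, 6.65-fold and 2.32-fold of the means. The Schwann cell marker sum fell with them, and its part in these falls was not tested.

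The Shaker-type family did not move as a block. *Kcna5*, the neighbour of *Kcna1* and *Kcna6* on chromosome 6, was at 426, 324 and 307 against 457, 497 and 226 (0.09 ± 0.31, log2), so its groups overlapped. *Kcna4* was called higher, from 137, 39.7 and 106 to 341, 694 and 540.0 (2.58 ± 0.47, adjusted p = 0.00346). These members, which lay outside the rule for naming, were picked out after their values were seen, to set beside the 3 that fell.

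Over all 40 voltage-gated potassium pore genes, 34 were tested, 10 were higher, 7 lower and 17 not called, with a median log2 fold change of 1.04 that came to 0.09 over the genes with a mean of at least 50 in either group. Beside the 3 Shaker-type genes *Kcnq5* and *Kcnd3* (Kv4.3), the latter a pore of the fast transient A-type current, were among those called lower, with log2 fold changes of -1.84 and -1.64. *Kcnq5* shares its span with 12 genes listed on the same strand, of which the highest value in any library was 877, and reads shared with them cannot be told apart here.

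The largest rises of this class started from few or no reads. *Kcnq3*, *Kcns2*, *Kcnh4*, *Kcnh1* and *Kcnc1* had control means under 10 and passed the limit only through the mutant mean, where they are high. *Kcnq3*, a subunit of the M-current channel that holds neurons near rest, was at 0 in all 3 control-labelled libraries and at 36.4, 26.1 and 64.3 in the mutant-labelled ones. Taking 3 reads per library as the limit of a count of 0, it was at least 12.7-fold higher (adjusted p = 0.00118).

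*Kcns2*, a silent subunit that modifies Kv2 channels, went from 0, 18.9 and 0 to 34.2, 123 and 179 (log2 fold change 5.09 ± 1.24, adjusted p = 0.0135). Among the ether-a-go-go family, *Kcnh4* (Kv12.3) went from 0, 9.45 and 17.7 to 160.0, 159 and 121 (4.66 ± 1.001, adjusted p = 0.00779). *Kcnh1* (Kv10.1) went from 15.5, 5.67 and 0 to 49.5, 98.4 and 115 (4.12 ± 1.001, adjusted p = 0.0135). Groups did not overlap in any of the 3 genes, and at least 1 control-labelled library of each was at 0. The log2 ratios of the group means were smaller than these fitted values, at 4.15 for *Kcns2*, 4.02 for *Kcnh4* and 3.63 for *Kcnh1*. Their sizes depended on single libraries. *Kcns2* came to 6.53 without control-labelled replicate 2, 4.37 without control-labelled replicate 1 or 3, and 5.78 without mutant-labelled replicate 1. *Kcnh4* came to 3.39 without control-labelled replicate 1 and 5.50 without replicate 3, and *Kcnh1* to 5.01 and 2.99 without the same libraries. *Kcnh1* overlaps a gene on the other strand that reached 431 in 1 library. Also called higher were *Kcna4*, *Kcnc1*, *Kcnc4*, *Kcnd2* and *Kcnf1*, with log2 fold changes from 1.21 to 2.91, and in *Kcnc1* the groups overlapped. The calls of *Kcnc1*, *Kcnd2* and *Kcnf1* were lost on adjustment (adjusted p by limma of 0.0823, 0.0944 and 0.11). *Kcnf1* came to 0.85 without control-labelled replicate 1 and 2.57 without replicate 3, and its call was also lost without any 1 mutant-labelled library. *Kcnc1* came to 4.11 without control-labelled replicate 1, and its call was lost without control-labelled replicate 2 or 3 (2.31 each) or mutant-labelled replicate 1 or 3 (2.75 and 2.65). *Kcnd2* kept its call only without control-labelled replicate 1, and was at 0.73 without control-labelled replicate 2.

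**Figure D3:**
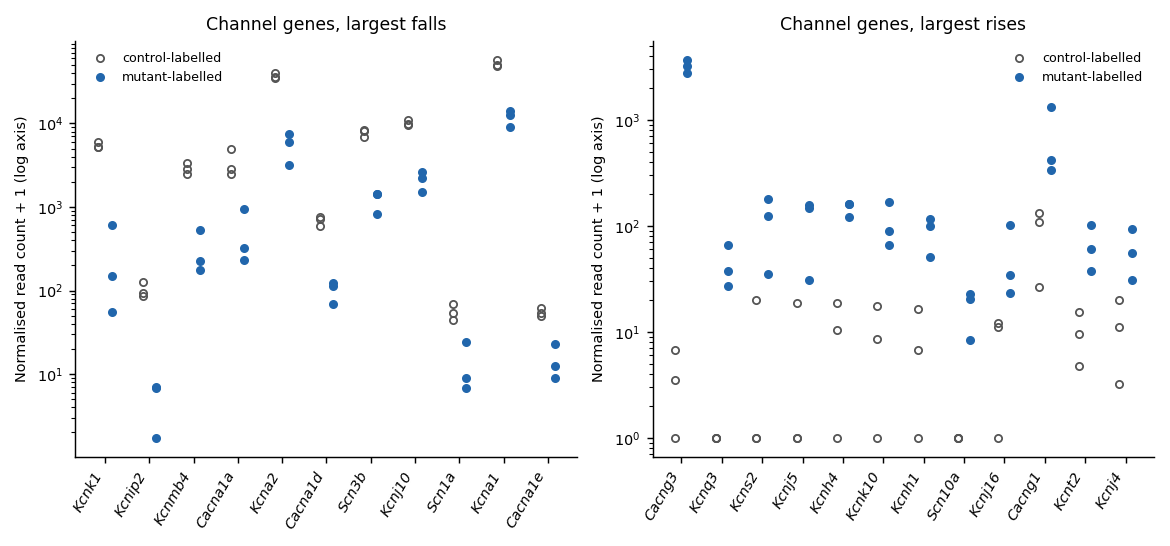
Normalised read counts plus 1 (log axis) of 11 of the 12 channel genes with the largest falls (left) and the 12 with the largest rises (right) among those called without overlap; each open grey circle is a control-labelled and each filled blue circle a mutant-labelled library, 3 of each per gene. The falls include *Kcna1* and *Kcna2*, the channel genes with the most reads, while 9 of the rises have at least 1 control-labelled library at 0.

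Auxiliary subunits ride on the potassium pores and set their gating or their traffic. Of 15 such genes, 12 were tested, 2 were higher, 3 lower and 7 not called. Their median log2 fold change was 0.78, but it turned to -0.54 at a minimum mean of 50 and was 0.01 without mutant-labelled replicate 2. *Kcnip2* (KChIP2), a calcium-binding partner of Kv4 channels, fell from 85.5, 126 and 92.5 to 0.727, 5.79 and 5.93 (-4.54 ± 0.69, adjusted p = 0.00142). Mutant-labelled replicate 1 held almost none of its reads, and without that library the log2 value was -3.88. With a pseudocount of 10 in place of 1 it was -2.98. *Kcnmb4*, the beta-4 subunit of the large-conductance calcium-activated channel, fell from 2503, 2871 and 3344 to 532, 224 and 174 (-3.39 ± 0.36, adjusted p = 0.000242), with every mutant-labelled value far below every control-labelled one. The pore that *Kcnmb4* joins, *Kcnma1* (BK), moved the other way, from 51.1, 71.8 and 39.3 to 196, 223 and 151 (1.82 ± 0.34, adjusted p = 0.00394), and is set beside it after its value was seen. *Kcnab2* was the third auxiliary gene called lower, and it overlaps a gene that reached 1285. *Kcnab1* and *Kcne4* were called higher, at 2.17 and 2.27.

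All 8 calcium- and sodium-activated potassium channel genes were tested. *Kcnma1*, *Kcnn4* and *Kcnt2* were higher, *Kcnn1* was lower and 4 were not called, with a median log2 fold change of -0.37. *Kcnt2* (Slick), a sodium-activated channel, rose from 14.4, 8.504 and 3.80 to 100.4, 36.7 and 59.3 (2.78 ± 0.65, adjusted p = 0.0116). The lowest mutant-labelled value was above the highest control-labelled one.

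Inward rectifiers let potassium in more easily than out and hold the resting potential of glia. Of 15 such genes 11 were tested, 5 were higher, 1 lower and 5 not called, with a median log2 fold change of 0.60 (1.67 at a minimum mean of 50, and 1.28 without mutant-labelled replicate 3). The 1 lower gene was *Kcnj10* (Kir4.1), the main potassium-buffering channel of glial cells. It was at 9746, 9605 and 10920 in the control-labelled libraries and at 2650, 1518 and 2192 in the mutant-labelled ones, a 4.76-fold fall (-2.29 ± 0.19, adjusted p = 5.8e-05). *Kcnj16* (Kir5.1), which joins Kir4.1 in mixed channels, was at 11.1, 0 and 10.1 against 101, 22.2 and 33.6 and was called higher (3.08 ± 1.08), but its adjusted p was 0.0566. Mutant-labelled replicate 1 held the high value of *Kcnj16*, and without that library it was not called (2.47). Without control-labelled replicate 1 it came to 3.70 and without replicate 2 to 1.90.

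*Kcnj5* (Kir3.4), a G-protein-gated channel known from the heart, went from 0, 0 and 17.7 to 156, 147 and 29.7 (5.07 ± 1.24, adjusted p = 0.0139; the log2 ratio of means was 4.23). Its control-labelled reads came from replicate 3 alone, without which the log2 value was 6.48, and it was 4.36 without control-labelled replicate 1 or 2 and 5.84 without mutant-labelled replicate 3. *Kcnj4* (Kir2.3) went from 2.22, 18.9 and 10.1 to 93.1, 54.0 and 29.7 (2.60 ± 0.80, adjusted p = 0.0345), and without control-labelled replicate 1 it came to 1.86. Both had their lowest mutant-labelled value in replicate 3. The other 2 called higher were *Kcnj11* and *Kcnj15*, at 2.59 and 1.67, of which *Kcnj15* was not called without mutant-labelled replicate 2 (1.49) or 3 (1.56). Among the inward rectifiers called higher, *Kcnj5* and *Kcnj16* passed the limit of 10 only through the mutant mean, where they are high.

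Channels with a pair of pore domains (K2P) carry the leak current. Of 14 such genes 10 were tested, 1 was higher, 2 lower and 7 not called, with a median log2 fold change of -0.50. *Kcnk1* (TWIK-1) had the largest fall of all channel genes, from 5157, 5193 and 6041 to 609, 55.0 and 149 (-4.98 ± 0.70, adjusted p = 0.000948), 20.2-fold on the means. The 3 mutant-labelled values were spread widely and still lay far below the control-labelled ones. The log2 value was -5.89 without mutant-labelled replicate 1 and -4.17 without replicate 2. *Kcnk10* (TREK-2), a stretch- and lipid-sensitive leak channel, rose from 16.7, 7.56 and 0 to 64.7, 87.8 and 165 (4.22 ± 1.02, adjusted p = 0.0134; the log2 ratio of means was 3.71). Without control-labelled replicate 3, which was at 0, the rise of *Kcnk10* was 3.01, and without control-labelled replicate 1 it was 5.08. *Kcnk10* passed the limit of 10 only through its mutant mean, where it is high. *Kcnk4* was the other gene called lower, at -1.89, and was not called without control-labelled replicate 2 (-1.81).

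Sodium channel alpha subunits form the pore. All 9 were tested, 2 were higher, 2 lower and 5 not called, with a median log2 fold change of -0.28. *Scn8a* (Nav1.6), the channel of mature nodes, was at 983, 1078 and 1092 against 769, 823 and 684. Every mutant-labelled value of *Scn8a* was below every control-labelled one, but the difference was under 2-fold (-0.47 ± 0.13, adjusted p = 0.0224). *Scn7a* (Nax), a sodium-sensing relative known from Schwann cells, was at 1881, 1332 and 1215 against 1347, 442 and 1045, with overlapping groups (-0.76 ± 0.38, adjusted p = 0.151). Without mutant-labelled replicate 1, which stood within the control-labelled range, *Scn7a* was called lower (-1.09), while it was at -0.29 without mutant-labelled replicate 2, the low library, and at -0.57 without control-labelled replicate 1.

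*Scn9a* (Nav1.7), a channel of pain-sensing and sympathetic neurons, was lower, at 278, 476 and 674 against 177, 168 and 237 (-1.22 ± 0.33, adjusted p = 0.0202). Its fall missed the 2-fold limit without control-labelled replicate 3 (-0.92). *Scn1a* (Nav1.1), found in fast-firing neurons, was lower as well, at 52.2, 43.5 and 68.4 against 23.3, 5.79 and 7.91 (-2.27 ± 0.62, adjusted p = 0.0224). In neither gene did the groups overlap.

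*Scn10a* (Nav1.8), a marker of sensory neurons, was at 0 in every control-labelled library and at 7.27, 19.3 and 21.8 in the mutant-labelled ones, which made it at least 4.85-fold higher (adjusted p = 0.0103). *Scn10a* thus passed the limit of 10 only through its mutant mean. It overlaps a gene on the other strand that reached 2754 in 1 library, and the sources used here do not give whether counting used strand. The library kit kept the strand. Of the 12 neuronal markers 7 were called higher too: *Tubb3*, neuronal beta-tubulin, was at 693, 1007 and 1023 against 3147, 2997 and 2906, and *Pou4f1*, a sensory neuron transcription factor, at 0, 11.3 and 12.7 against 52.4, 44.4 and 61.3. *Trpv1*, a heat-sensing channel of the same neurons, was at 44.4, 32.1 and 60.8 against 1.45, 115 and 9.89, with overlapping groups. *Scn11a*, the neighbour of *Scn10a* on chromosome 9, was at 11.1, 32.1 and 2.53 against 17.5, 3.86 and 7.91. Its groups overlapped (-0.28 ± 0.98, log2), and it was picked out after its values were seen. The part of neuronal RNA in the rises of *Scn10a* and *Kcnq3* was not tested.

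Sodium channel beta subunits are adhesion-type partners of the pore. All 4 were tested, 0 were higher, 2 lower and 2 not called, with a median log2 fold change of -0.46. *Scn3b* (beta-3) had 6896, 8177 and 8391 in the control-labelled libraries and 1416, 822 and 1446 in the mutant-labelled ones, a 6.37-fold fall (-2.71 ± 0.21, adjusted p = 4.78e-05). The control-labelled values of *Scn3b* were close to each other and all far above the rest. *Scn2b* was the other gene called lower, at -1.29.

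Calcium channel pore genes split by direction. Of 10, 8 were tested, 2 were higher, 3 lower and 3 not called, with a median log2 fold change of 0.11 (-0.03 without mutant-labelled replicate 2, 0.74 without replicate 3, and 0.73 with no limit on low values). *Cacna1a* (Cav2.1, P/Q-type), the main trigger of transmitter release, fell from 2860, 2457 and 4927 to 932, 233 and 324 (-2.98 ± 0.48, adjusted p = 0.00185), and was at -3.56 without mutant-labelled replicate 1. *Cacna1d* (Cav1.3, L-type) fell from 721, 754 and 584 to 123, 67.5 and 111 (-2.80 ± 0.27, adjusted p = 0.000129). *Cacna1e* (Cav2.3, R-type) fell from 60.0, 49.1 and 53.2 to 21.8, 11.6 and 7.91 (-2.01 ± 0.53, adjusted p = 0.0198). In all 3 the groups stood apart. The span of *Cacna1d* holds other listed genes, of which the highest value in any library was 835, above its own control mean. *Cacna1s* and *Cacna1b* were the 2 genes called higher.

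The alpha-2-delta and beta subunits bring the calcium pore to the membrane. All 8 were tested, 1 was higher (*Cacna2d3*, at 2.50), 0 were lower and 7 were not called, with a median log2 fold change of 0.15 that turned to -0.13 without mutant-labelled replicate 3. *Cacna2d3* overlaps 7 listed genes on its strand and 2 on the other, of which the highest value in any library was 160.2, and reads shared with them cannot be told apart here. *Cacna2d1*, the target of gabapentin and a subunit of sensory neurons, was at 222, 182 and 187.5 against 253, 180.4 and 309. Its groups overlapped and the difference did not exceed the spread between libraries (0.30 ± 0.25, adjusted p = 0.401).

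The gamma family held the largest rise of all channel genes. *Cacng3*, which encodes a protein that escorts AMPA-type glutamate receptors, was at 0, 5.67 and 2.53 in the control-labelled libraries and at 3214, 3694 and 2753 in the mutant-labelled ones. The control-labelled values stand for a few reads each or none, so *Cacng3* passed the limit of 10 only through its mutant mean. No mutant-labelled library was below 2753. The log2 fold change was 10.12 ± 0.63 (SE, n = 3 per group, adjusted p = 1.6e-05), and it was 9.36 without control-labelled replicate 1 and 10.73 without control-labelled replicate 2. With a pseudocount of 10 in place of 1 it was 8.001, and with 0.1 it was 11.44. The other 7 genes of the family gave no change of this kind: 5 more were tested, *Cacng1* alone was called, also higher, and 4 were not called, with a median over the 6 tested of 1.26 (1.93 at a minimum mean of 50, 2.09 without control-labelled replicate 1, and 2.02 or 1.998 without mutant-labelled replicate 1 or 2). *Cacng2*, the best known member of the same AMPA receptor group, was at 0, 0 and 0 against 5.82, 0 and 3.96 and was not tested. The one gene that overlaps *Cacng3*, on the other strand, was at 0 in all 6 libraries.

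Of 4 channel genes of skeletal muscle, where they serve excitation and its coupling to contraction, 3 were called higher, as were 10 of the 12 skeletal muscle markers. *Cacng1*, the gamma subunit of the muscle dihydropyridine receptor, was at 107, 25.5 and 132 against 418, 338 and 1332 (2.99 ± 0.69, adjusted p = 0.0105). *Scn4a* (Nav1.4), the sodium channel of muscle, was at 75.5, 39.7 and 39.3 against 222, 56.9 and 431 and was called higher, with overlapping groups and an adjusted p of 0.07. *Cacna1s* (Cav1.1), the voltage sensor of muscle, was at 42.2, 60.5 and 73.5 against 187.7, 59.8 and 489.6, likewise with overlap and an adjusted p of 0.0995. Each had its highest value in mutant-labelled replicate 3 and its lowest mutant-labelled value in replicate 2. *Cacnb1*, the beta subunit of the same receptor, was at 686, 668 and 863 against 499.7, 433 and 808, with overlapping groups (-0.39 ± 0.24, adjusted p = 0.24).

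Mutant-labelled replicate 3 exceeded replicate 2 by 7.14 times in the muscle marker sum, by 8.18 times in *Cacna1s*, 7.58 times in *Scn4a*, 5.18 times in *Kcnc4*, 4.87 times in *Kcnj11* and 3.95 times in *Cacng1*. *Kcnc4* and *Kcnj11* were set beside the others after their values were seen, and without mutant-labelled replicate 3 they came to 1.71 and 1.94. The 3 mutant-labelled libraries stood in the order of the muscle sum in 22 of the 110 tested channel genes, *Cacnb1* and these 5 among them. *Scn3b* and *Scn9a*, which were called lower, were also among the 22. The share over all tested genes was not worked out, so the count is not read as a link with muscle. Without mutant-labelled replicate 3, *Scn4a* (1.18) and *Cacna1s* (0.88) were not called, *Cacng1* was at 2.38, and 24 channel genes in all were called higher and 22 lower. Without mutant-labelled replicate 1, *Scn4a* (1.66) and *Cacna1s* (1.57) were not called either. The call of *Scn4a* was also lost without control-labelled replicate 2 (1.68) or 3 (1.67), and that of *Cacna1s* without control-labelled replicate 1 (1.39), 2 (1.65) or 3 (1.79). *Cacng1* was at 2.26 without control-labelled replicate 2, and without mutant-labelled replicate 2 *Scn4a* was at 2.63 and *Cacna1s* at 2.38. All 12 muscle markers were found, none at 0 in all libraries, and the sum lay between 7682 and 38114 in the control-labelled and between 50298 and 359131 in the mutant-labelled libraries. The part of attached muscle in these rises was not tested.

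**Figure D4:**
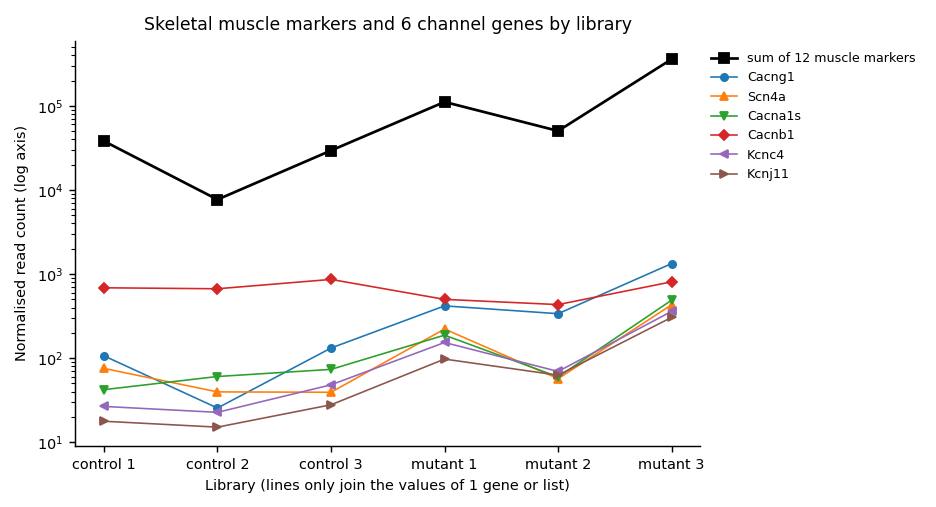
Normalised read counts (log axis) by library of the sum of 12 skeletal muscle markers (black) and of 6 channel genes; lines only join the values of 1 gene or list. In the mutant-labelled libraries the sum and *Cacng1*, *Scn4a*, *Cacna1s*, *Kcnc4* and *Kcnj11* are all highest in replicate 3; so is *Cacnb1*, which lies between 433 and 863 over all 6 libraries.

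Channel genes often lie in clusters. On the genome 57 of the 131 genes had another channel gene within 1000000 bases and formed 23 groups. In 7 of these groups the called genes were all higher, in 4 all lower, in 3 mixed, and in 9 no gene was called. *Scn1a* (chr2:66270782-66440838, mm10) and *Scn9a* (chr2:66480089-66634963) on chromosome 2 were both lower, and in the same group *Scn7a* (chr2:66673426-66784918) and *Scn3a* were not called. *Kcna1* (chr6:126636463-126645801) and *Kcna6* (chr6:126708330-126740674) were both lower with *Kcna5* not called. On chromosome 3 *Kcna2* (chr3:107101565-107115005) was lower and *Kcnc4* higher, and on chromosome 14 *Cacna1d* was lower and *Cacna2d3* higher. Members of 1 group are not independent, and the groups are given as a description.

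Promoter windows of RefSeq on GRCm38.p6, the assembly that mm10 stands for, run from 250 bases before to 50 after a transcript start. A window whose transcript start lay within 1000 bases of the deposited 5′ end of the gene was found for 73 of the 110 tested genes, 22 of those called higher and 15 of those called lower. Shown are the second most read gene that fell and 3 genes that fell and hold the letters of the SOX motif ACAAAG, with matches to any of the 4 motifs searched in capitals. *Kcna2* (chr3:107101317-107101616, plus strand), *Kcnj10* (chr1:172340960-172341259, plus strand), *Kcnn1* (chr8:70863209-70863508, minus strand) and *Scn9a* (chr2:66634913-66635212, minus strand) read, 5′ to 3′ on the strand of the gene:
Kcna2: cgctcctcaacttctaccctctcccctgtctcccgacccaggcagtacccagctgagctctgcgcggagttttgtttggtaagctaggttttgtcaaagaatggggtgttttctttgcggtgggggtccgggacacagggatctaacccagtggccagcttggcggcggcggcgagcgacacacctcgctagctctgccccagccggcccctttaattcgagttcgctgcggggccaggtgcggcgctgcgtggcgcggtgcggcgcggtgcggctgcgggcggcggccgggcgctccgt
Kcnj10: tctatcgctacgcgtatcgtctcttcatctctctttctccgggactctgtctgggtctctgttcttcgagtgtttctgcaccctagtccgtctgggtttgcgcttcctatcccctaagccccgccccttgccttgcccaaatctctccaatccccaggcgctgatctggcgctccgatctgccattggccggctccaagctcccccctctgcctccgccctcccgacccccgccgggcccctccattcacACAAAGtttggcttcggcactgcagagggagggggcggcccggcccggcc
Kcnn1: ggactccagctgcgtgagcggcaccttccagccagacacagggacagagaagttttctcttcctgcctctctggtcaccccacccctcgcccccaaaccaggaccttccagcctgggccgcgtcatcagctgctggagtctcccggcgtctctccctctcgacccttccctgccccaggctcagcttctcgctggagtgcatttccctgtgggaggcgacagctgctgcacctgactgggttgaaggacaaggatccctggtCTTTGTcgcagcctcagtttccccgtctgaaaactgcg
Scn9a: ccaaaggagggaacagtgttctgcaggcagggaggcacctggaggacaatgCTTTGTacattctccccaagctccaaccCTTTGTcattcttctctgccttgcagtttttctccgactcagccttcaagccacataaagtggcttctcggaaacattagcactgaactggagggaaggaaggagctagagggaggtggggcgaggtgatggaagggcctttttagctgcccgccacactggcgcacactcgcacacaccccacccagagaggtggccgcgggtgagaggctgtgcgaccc

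The 4 motifs were searched on both strands. ACAAAG, the core bound by SOX factors such as SOX10, was in 4 of the 15 windows of genes called lower (26.7%), 2 of the 22 called higher (9.09%) and 4 of the 36 not called (11.1%), where 18.7% of all 32851 RefSeq windows held it. TTCNNTTTC, part of the interferon-stimulated response element, was in 0 of the 15 lower, 3 of the 22 higher (13.6%) and 4 of the 36 not called (11.1%), where 8.56% of all windows held it. GCGNGGGCG, bound by EGR factors, was in 0 of the 15 lower, 3 of the 22 higher (13.6%) and 4 of the 36 not called (11.1%), beside 5.55% of all. TGANTCA, bound by AP-1, was in 0 of the lower, 0 of the higher and 3 of the 36 not called (8.33%), beside 7.81% of all. The window of *Kcna2* held none of the 4, and no match printed overlaps another. A match is a description of letters, and with so few windows no set is said to differ from all windows.

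Channels are anchored, escorted and powered by other proteins, and 42 such partner genes were taken as a list. All 42 were tested, 9 were higher, 10 lower and 23 not called, where 13.9% of all tested genes were higher and 10.4% lower, with a median log2 fold change of -0.16. *Nfasc* (neurofascin), which builds the node and the paranode, fell from 4961, 5215 and 5600 to 1079, 126 and 342 (-3.86 ± 0.62, adjusted p = 0.00194). *Adam23*, a receptor for LGI proteins that is found with Kv1 channels, fell from 11259, 13342 and 12207 to 2515, 1657 and 1824 (-2.64 ± 0.16, adjusted p = 1.4e-05). In both the groups were far apart, and *Nfasc* varied more, at -4.65 without mutant-labelled replicate 1 and -3.11 without replicate 2. *Nalcn*, a sodium leak channel, fell from 249.8, 299.5 and 226 to 30.6, 114 and 48.5 (-2.19 ± 0.46, adjusted p = 0.0069).

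The 4 largest rises among the partners also started from few reads, with control means under 10, so that these genes passed the limit only through the mutant mean, where they are high. *Dpp10*, an auxiliary subunit of Kv4 channels, went from 11.1, 1.89 and 5.07 to 304, 350.2 and 165 (5.45 ± 0.62, adjusted p = 0.000313). *Hcn4*, a pacemaker channel, went from 11.1, 0 and 5.07 to 116, 222 and 126 (5.15 ± 0.90, adjusted p = 0.00288), and was at 5.92 without control-labelled replicate 1 and 4.12 without replicate 2. The juxtaparanodal pair of adhesion proteins that holds Kv1 channels in place, *Cntnap2* (Caspr2) and *Cntn2* (TAG-1), was higher. *Cntnap2* went from 13.3, 5.67 and 5.07 to 74.2, 61.8 and 71.2 (3.07 ± 0.55, adjusted p = 0.00333). *Cntn2* went from 0, 0 and 5.07 to 21.8, 13.5 and 17.8 (3.33 ± 0.98, adjusted p = 0.0289), and to 4.201 without control-labelled replicate 3, the only one with reads. Of the 12 neuronal markers 7 were higher as well and 5 were not called (summed level 4009 to 4663 against 9484 to 9894), and their part in these rises was not tested.

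**Figure D5:**
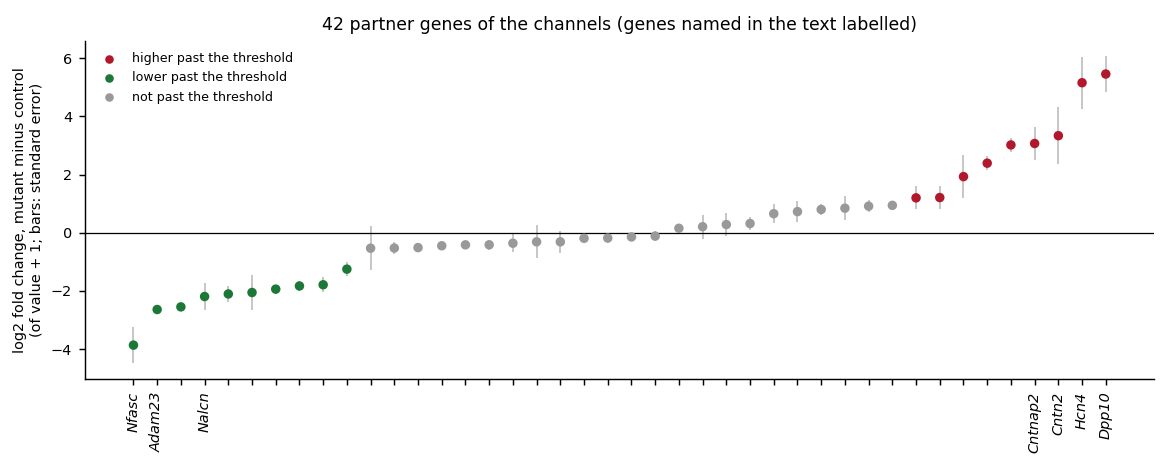
The log2 fold change (mutant minus control, of value + 1; y axis) of the 42 partner genes (x axis, sorted, those named in the text labelled), with bars for the standard error (n = 3 libraries per group). The 10 green points are genes called lower, from *Nfasc* at -3.86, the 9 red points genes called higher, up to *Dpp10* at 5.45, and the 23 grey points were not called.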

How the data were processed

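Gene expression in 6 sciatic nerves (3 control-labelled, 3 mutant-labelled, 1 animal each) was taken from the table the authors deposited. Per the labels and the methods, poly-A RNA was made into strand-oriented libraries, reads were mapped with STAR 2.4.0 on mm10, those on constitutive regions of genes were counted, and the counts were divided by DESeq size factors. The deposited values are therefore a normalised signal (read counts scaled per library), not whole counts. Within a tolerance of 0.1 reads, 100% of the values came out as whole reads after division by the value of 1 read. Those reads were used in the count tests only. Whether counting used strand is not given in the sources used here.

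Groups were compared with limma 3.58.1 in R 4.3.3 (linear model with trended empirical Bayes) on log2(value + 1), over all 25802 genes with a mean of at least 10 in either group, with no covariate. Fold changes are on that scale, a difference of mean log values: for 8 of the 12 largest rises it exceeded the log2 ratio of the group means, for 2 it fell below it, and for 2 the control mean was 0. A gene was called at a p of 0.05 or less before adjustment together with a 2-fold change, the thresholds of the study's methods, and adjusted p is Benjamini-Hochberg over all tested genes. The p-values set each difference against the spread between these animals, with the variance of each gene drawn towards a trend over all tested genes. Genes with symbols that match the rule were grouped by symbol. Named are the 12 largest rises and 12 largest falls called without overlap, a fixed set of nerve and muscle channel genes, and the 4 largest rises and falls of the partner list, and other called channel genes are listed by name. Results of some genes under this rule, and 1 promoter sequence, are not reported here. The members and lists were chosen with earlier results of these data known. Of the 110 tested channel genes, 66 overlap another listed gene, and for 14 of them (6 called) such a gene reached a value above the member's own mean.

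Alternatives were pseudocounts of 0.1 and 10, a minimum mean of 50 or none, libraries scaled to a common total or a common 75th percentile, an adjusted p limit, edgeR 4.0.16 quasi-likelihood and DESeq2 1.42.0 on the recovered reads, a replicate block, and leaving out each library. The fits were tested on simulated counts with the same dispersion for every gene and with changes only in genes with a mean of at least 50. The simulation therefore does not cover rises from few reads or libraries that differ in tissue content. Promoters and figures were made in Python 3.11.15 with pandas 2.3.3 and matplotlib 3.10.9. Floors (3 reads) cover counting error only.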

Additional observations from a re-analysis of the deposited data

How the results depend on the processing

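Counts of calls kept within 1.5 times of those reported under every alternative but 1, chosen after seeing the data: with a mean of at least 10 in both groups, 16 channel genes were higher and 19 lower (2355 and 2160 of all genes), with fewer genes tested, and 15 partner genes were called. Under the others, channel genes called higher ranged from 22 (adjusted p) to 33 (same total) and lower from 20 to 25, and without 1 library from 24 to 32 and from 20 to 25. edgeR called 25 higher and 21 lower, and DESeq2 27 and 21. No sign of pairing by replicate number was seen: deviations of same-numbered libraries correlated at -0.062, -0.055 and 0.009. With 3 libraries per group, such correlations cannot show that no libraries were paired. With the replicate block 29 channel genes were higher and 21 lower (3560 and 2589 of all genes), and 18 partner genes were called in place of 19. Scaling to the same total moved the median log2 fold change of all genes from 0.03 to 0.19, and of the channel genes it called 33 higher and 20 lower. Of 42 named genes, 36 kept direction and side of the threshold in each of the 16 settings that gave them a value (genes with few reads have none at a minimum mean of 50) and none reversed in 667 comparisons; the exceptions included *Cacna1s* and *Scn4a*, *Kcnj16* (not called at a pseudocount of 0.1 or by adjusted p either), *Scn9a* and *Scn7a*. Sizes of changes with few reads in 1 group depend on the pseudocount: *Kcnq3* came to 2.32 at 10 and 8.62 at 0.1, *Kcnip2* to -2.98 and -5.02, and at 10 the log2 changes were 2.86 for *Kcns2*, 3.15 for *Kcnh4*, 2.55 for *Kcnh1*, 2.85 for *Kcnj5*, 2.70 for *Kcnk10*, 1.73 for *Kcnj16* and *Kcnj4*, 1.95 for *Kcnt2*, -1.60 for *Scn1a*, 1.34 for *Scn10a*, 4.12 for *Dpp10*, 3.43 for *Hcn4*, 2.16 for *Cntnap2* and 1.26 for *Cntn2*. Medians of classes with few genes also moved, that of the voltage-gated potassium pores to 0.09 at a minimum mean of 50 and that of the auxiliary subunits to -0.54, with fewer genes tested there.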
